A study of Mus musculus with 4 samples.

Results

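The 5 features described here are NONMMUG009163.2, NONMMUG009157.2, NONMMUG043413.2, NONMMUG012896.2 and NONMMUG029036.2, the short and very abundant entries among 50821 listed in tables of long non-coding RNA from mouse ovary. They were chosen by their mean estimated count over all 4 libraries and by their deposited length, as the features of 275 to 332 bases among the 10 with the highest mean count. NONMMUG009163.2 and NONMMUG009157.2, both of 297 bases, had equal counts and equal FPKM in every library and are treated as 1 signal, called the pair, so that the 5 features give 4 signals. FPKM is a count scaled by the length of the feature and by the number of fragments in the library. Total RNA was taken from ovaries of mice aged 3 days (2 libraries, day 3) and from ovaries removed at 3 days of age and kept in vitro for 8 days (2 libraries, cultured). The labels place the 2 groups before and after the initiation of primordial follicles, the resting follicles of the ovary, which the submitters assessed by HE staining, and they name no strain, allele or agent. They do not say how many animals a library holds. The p-values given here therefore refer to these 4 libraries alone, and the spread among them may be technical. Time and culture cannot be told apart.

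Several RNAs of about this length are known in all mammalian cells. 7SK RNA holds the transcription elongation factor P-TEFb in an inactive complex. The RNA of RNase P trims the 5′ leader of transfer RNA precursors, and the RNA of RNase MRP acts in the processing of ribosomal RNA precursors. All of them are made by RNA polymerase III, and growing oocytes are known for building up ribosomes. No file used here pairs the 5 identifiers with a gene name, a sequence or a position, so the identity of each feature is unproven and the roles above are background on RNAs of like length.

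Reference RNAs of the mouse were set beside the features by length alone. In RefSeq (GRCm38.p6), 1 of 16965 non-coding genes spans exactly 332 bases, the length of NONMMUG043413.2, and it is Rn7sk, the 7SK RNA gene, which has 331 bases in GENCODE M21. For 275 bases, the length of NONMMUG029036.2, there are 3 such genes, which are Gm25624, Scarna13 and Rmrp, the RNase MRP RNA gene. The 297 bases of the pair are spanned by 1 such gene, Gm36220, which is none of the RNAs described above. The look-up by name covered only the 3 RNAs described above, so other known RNAs near this length were not compared with the pair. Rpph1, the RNase P RNA gene, spans 325 bases in RefSeq and 319 in GENCODE M21. The deposited length of NONMMUG012896.2, a mean over 2 transcripts, was 307.08 and 313.66 bases at day 3 and 308.71 and 307.24 bases after culture. No RefSeq non-coding gene spans its rounded mean of 309 bases. Neither transcript need have that length, so this look-up can neither match nor exclude an RNA. A listed feature of exactly 325 bases that is not among the 5 had a mean count of 45496, and whether it is Rpph1 was not tested. There are 10 listed features of 297 bases, 14 of 332, 20 of 309 and 9 of 275, so a match in length does not single out a feature.

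The sequences of 3 such reference RNAs, from GENCODE M21 (GRCm38), show what RNAs of these lengths look like. In the 281-base Rmrp transcript (chr4:43492783-43493063, minus strand) capitals mark the 275 bases of the RefSeq span. Rn7sk (chr9:78175303-78175633, minus strand) and Rpph1 (chr14:50807449-50807767, minus strand) are given by their first 300 bases.
Rmrp: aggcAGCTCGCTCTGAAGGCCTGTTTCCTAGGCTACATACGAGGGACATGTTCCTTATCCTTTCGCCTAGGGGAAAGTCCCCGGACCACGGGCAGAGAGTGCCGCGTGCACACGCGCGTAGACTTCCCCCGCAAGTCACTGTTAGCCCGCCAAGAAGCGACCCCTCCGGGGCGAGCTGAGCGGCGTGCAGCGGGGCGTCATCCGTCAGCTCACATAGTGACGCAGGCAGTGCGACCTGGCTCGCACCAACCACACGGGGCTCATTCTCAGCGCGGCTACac
Rn7sk: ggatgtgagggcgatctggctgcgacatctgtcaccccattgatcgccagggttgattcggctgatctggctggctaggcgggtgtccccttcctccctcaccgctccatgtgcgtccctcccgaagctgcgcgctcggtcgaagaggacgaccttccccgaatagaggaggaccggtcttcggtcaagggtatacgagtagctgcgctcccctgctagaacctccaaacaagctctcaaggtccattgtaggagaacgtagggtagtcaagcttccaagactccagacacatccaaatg
Rpph1: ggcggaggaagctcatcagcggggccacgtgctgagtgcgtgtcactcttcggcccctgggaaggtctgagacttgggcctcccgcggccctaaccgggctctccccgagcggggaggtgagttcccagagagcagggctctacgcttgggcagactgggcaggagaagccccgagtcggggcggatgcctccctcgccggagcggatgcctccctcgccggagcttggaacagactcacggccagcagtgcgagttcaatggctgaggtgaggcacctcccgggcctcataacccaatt
Between these 3 RNAs the longest exact stretch in common was 9 bases.

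The estimated counts of listed features summed to between 18215834 and 26566784 per library, and FPKM values to between 913110 and 1114219. Most listed counts came from few features, and the most abundant one, NONMMUG044354.2 with 2555 bases, held 50.02% and 45.6% of listed counts in the day 3 libraries and 29.5% and 25.9% in the cultured ones. Cultured library 1 stood apart in listing 11211 features at FPKM 0.5 or more, against 6991 to 7334 in the other libraries, and in a TMM factor of 1.45, against 0.794 to 1.032. Ovarian cell markers could not be checked, because the tables hold no gene symbols.

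The 5 features stood far above others of like length, which is what they were chosen for. Of 1392 listed features of 250 to 350 bases, the 5 held between 98.9% and 99.2% of the counts. NONMMUG029036.2, the lowest of them with a mean count of 243384 (rank 8 of all features), was still 5.35 times the next feature of that length range, which has 325 bases and rank 13. Just outside the rule by rank was a feature of 1190 bases, rank 11, with a mean count of 135557. Besides NONMMUG044354.2, the features of the top 10 that failed the length limit were those at ranks 5, 7, 9 and 10, with 955, 2907, 1545 and 5857 bases.

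**Figure D1:**
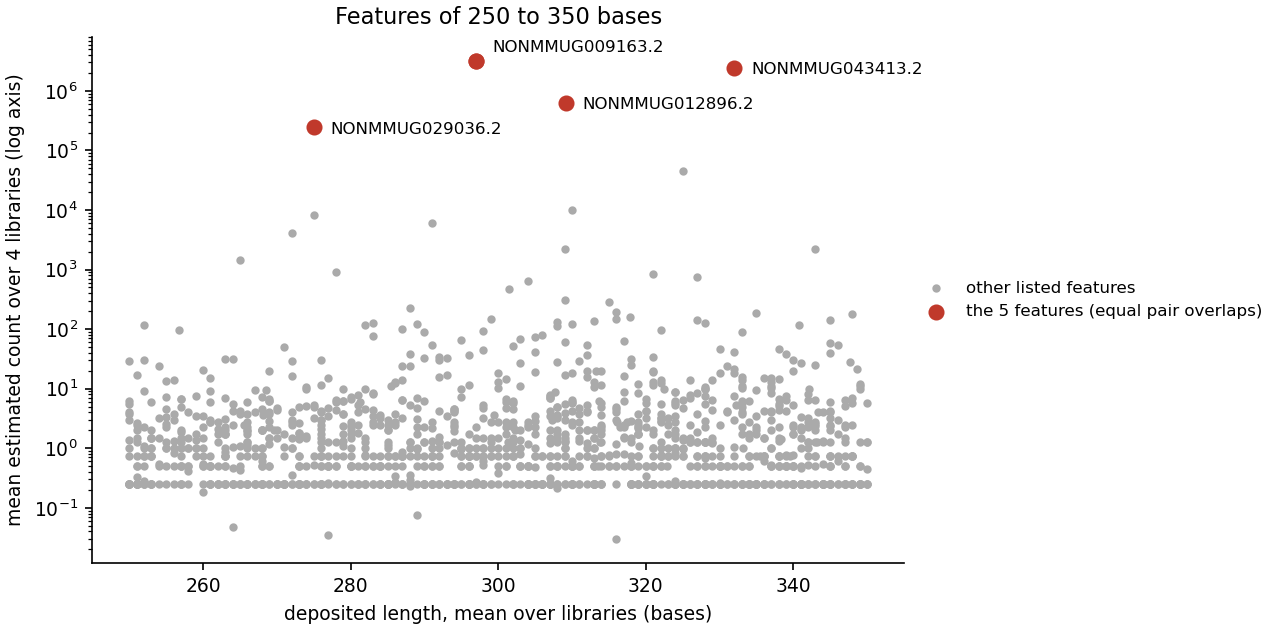
Mean estimated count over the 4 libraries (log axis) against deposited length in bases for listed features of 250 to 350 bases; each grey point is a feature and the red points are the 5 features, of which the equal pair falls on 1 point. The red points lie at mean counts from 243384 to 3215087, and the highest grey point is at 45496.

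NONMMUG009163.2, standing for the pair, had FPKM 245905 and 279000 at day 3. After culture FPKM was 317340 and 343236. The counts behind these values were 2875531, 3199594, 3384237 and 3400987, in the same order. Both cultured libraries lay above both day 3 libraries on either scale. Mean FPKM was 262453 ± 23401 (SD, n = 2) at day 3 and 1.26 times as high in cultured ovaries, at 330288 ± 18311 (SD, n = 2). It had the highest FPKM of all listed features in every library. If the reads of 1 RNA were split evenly over both identifiers, the level of that RNA would be the sum of both. If the same reads were counted for both, it would be the level of 1 of them, and the files do not say which holds. No further listed feature within 1 base of that length had counts within 10% of theirs.

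NONMMUG043413.2, of 332 bases, had the narrowest range of FPKM over the 4 libraries among the 4 signals, as a ratio of highest to lowest. The day 3 libraries had FPKM 173246 and 200034 and the cultured ones 196171 and 201433, from 2323204, 2636568, 2395114 and 2286537 counts. The groups overlapped, because cultured library 1 lay below day 3 library 2 in FPKM and in counts. The group means were 186640 ± 18941 (SD, n = 2) and 198802 ± 3721 (SD, n = 2). It ranked below only the pair in FPKM in every library.

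NONMMUG012896.2, with 2 transcripts, had the largest ratio of cultured to day 3 mean FPKM among the 4 signals. FPKM was 39137 and 44839 in the day 3 libraries and 58487 and 82049 in the cultured ones, from 476977, 550763, 653948 and 847613 counts. Both cultured libraries exceeded both day 3 libraries, and cultured library 2 was 1.40 times cultured library 1 in FPKM, a wider gap than the 1.15 between the day 3 libraries. The mean over day 3 libraries was 41988 ± 4032 (SD, n = 2), and that over cultured libraries was 1.67 times as high, at 70268 ± 16661 (SD, n = 2). Its mean transcript length of 310.37 ± 4.65 bases (SD, n = 2) in the day 3 group and 307.98 ± 1.04 (SD, n = 2) in the cultured group overlapped. In FPKM it stood below NONMMUG044354.2 in both day 3 libraries and above it in both cultured libraries.

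NONMMUG029036.2, of 275 bases, differed more within the groups than between them. FPKM was 19638 and 28799 in the day 3 libraries, against 20643 and 29491 in the cultured ones, from 208501, 299352, 200143 and 265538 counts. Library 2 was 1.47 times library 1 at day 3 and 1.43 times after culture, while the group means of 24218 ± 6478 (SD, n = 2) and 25067 ± 6257 (SD, n = 2) lay close together. Its counts were whole numbers in all 4 libraries, unlike those of the other 4 features, although it has 2 transcripts. Another listed feature of 275 bases did not follow it, with 9146 and 8971 counts at day 3 and 8198 and 6565 after culture.

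**Figure D2:**
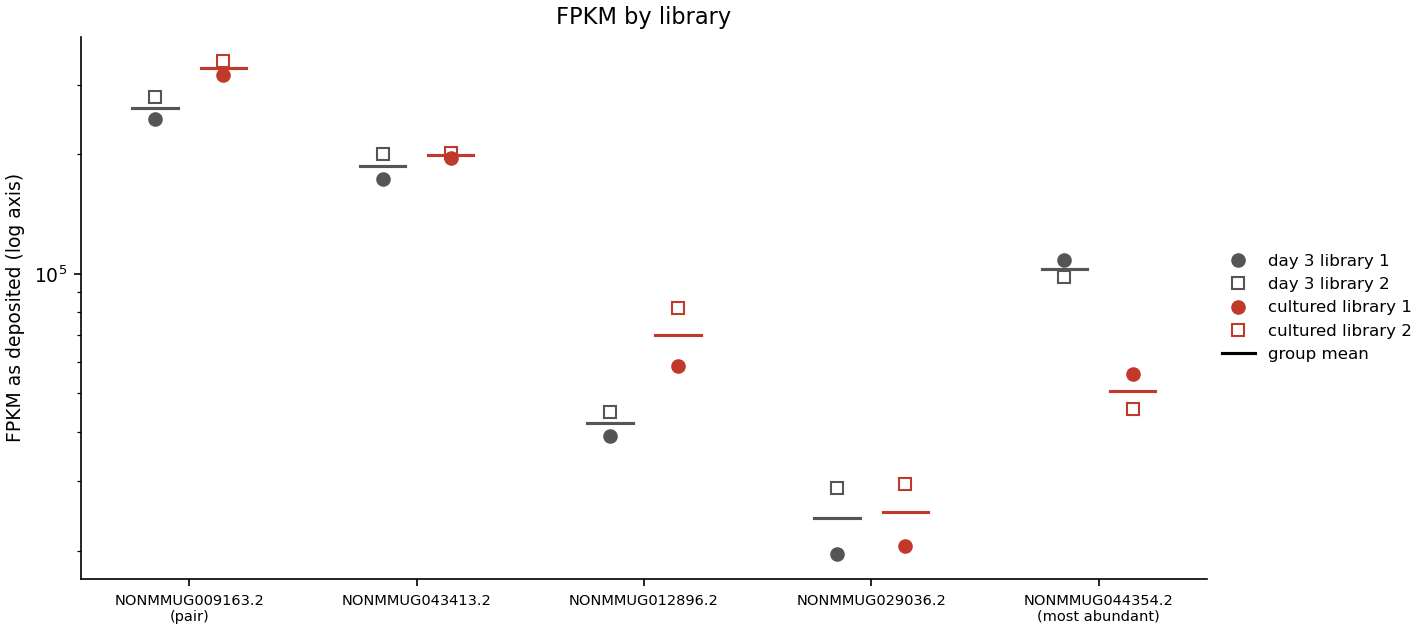
FPKM as deposited (log axis) of the 4 signals and of NONMMUG044354.2 in each library; circles are library 1, open squares library 2, and lines are group means. The groups do not overlap for the pair, NONMMUG012896.2 and NONMMUG044354.2, and they overlap for NONMMUG043413.2 and NONMMUG029036.2.

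Levels of different features were compared per length. In FPKM the order was the pair, NONMMUG043413.2, NONMMUG012896.2 and NONMMUG029036.2 in every library, and no neighbours in that order overlapped across libraries. The authors' FPKM divides by less than the deposited length: dividing counts by FPKM and by the library totals recovered from longer features gave implied lengths 56.4 to 64.0 bases shorter than the deposited ones for the 5 features. Their FPKM was thereby 1.21 to 1.30 times what the full deposited length would give, against 1.02 to 1.03 times for NONMMUG044354.2. This bears on 1 order. In cultured library 1, NONMMUG012896.2 was above NONMMUG044354.2 in FPKM, at 58487 against 55812, but below it in counts per base of deposited length, at 2118 against 2420. In cultured library 2 it was above on both scales, with 2759 against 1846 counts per base.

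The first comparison asked whether the signals differed between day 3 and cultured ovaries relative to all tested features. None of the 5 features passed the test with TMM scaling (trimmed mean of M-values, which sets libraries level on the bulk of features), where 14.4% of the 8557 tested features did (edgeR, adjusted p below 0.05). All 5 passed the filter on low values. At an unadjusted p below 0.05 the number was also 0 of 5, against 2318 of all 8557 features. DESeq2 called 0 of 5 and 1084 of all features, and limma called 0 of 5 and 741 to 823 of all features at 3 pseudocounts. The log2 fold change of cultured over day 3 was 0.07 for the pair (95% interval -1.21 to 1.35, edgeR adjusted p = 0.955) and -0.18 for NONMMUG043413.2 (-1.43 to 1.07, adjusted p = 0.872). It was 0.50 for NONMMUG012896.2 (-0.70 to 1.69, edgeR adjusted p = 0.604) and -0.17 for NONMMUG029036.2 (-1.31 to 0.98, adjusted p = 0.872). With TMM scaling the intervals span more than a 2-fold change in at least 1 direction for all 4 signals, so this fit does not show that the levels were equal. The median of the 4 signals was -0.05, against 0.08 for all tested features. In bulk tissue, fewer cells of a type and less RNA per cell cannot be told apart.

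The size of each difference followed the scaling. With the library totals behind the authors' FPKM, the median of all tested features moved from 0.08 to 0.45 and the 4 signals moved with it, to 0.36 for the pair, 0.12 for NONMMUG043413.2, 0.75 for NONMMUG012896.2 and 0.08 for NONMMUG029036.2. Again 0 of 5 were called (7.99% of all features, edgeR), the smallest adjusted p being 0.0894 for NONMMUG012896.2 (95% interval 0.21 to 1.30), the 1 feature of the 5 with an unadjusted p below 0.05. In that fit 2213 of all 8557 features had one, a share like 1 of 5. The other 95% intervals of that fit were -0.09 to 0.81 for the pair, -0.34 to 0.58 for NONMMUG043413.2 and -0.53 to 0.70 for NONMMUG029036.2. With only the summed listed counts as scale the median of all features was 0.69. NONMMUG012896.2 then passed the test with a log2 fold change of 1.01 (edgeR adjusted p = 0.0404), the 1 of 5 called where 12.4% of all features were. The 95% interval of the pair under this scaling was 0.09 to 1.14, above 0, but the pair was not called (edgeR adjusted p = 0.103). Relative to the median feature, NONMMUG012896.2 was 0.42 higher with TMM scaling, 0.31 with the FPKM totals and 0.32 with the summed counts. The pair was within 0.09 of the median feature under all 3 scalings, and NONMMUG043413.2 and NONMMUG029036.2 were 0.24 to 0.37 below it. Without cultured library 2 the log2 fold change of NONMMUG012896.2 with TMM scaling was -0.09, and without cultured library 1 it was 1.004.

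**Figure D3:**
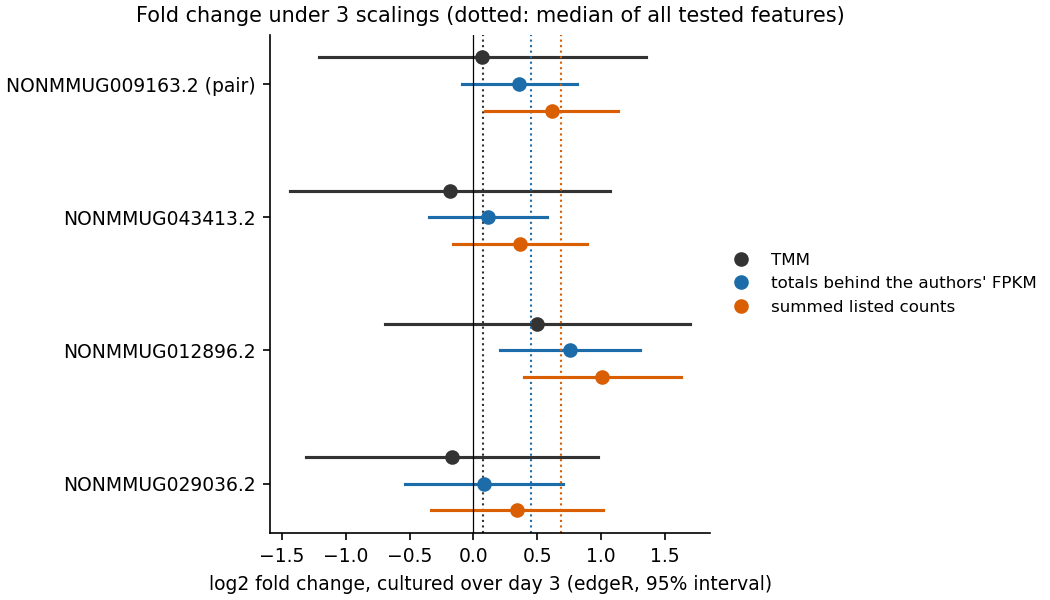
Log2 fold change of cultured over day 3 libraries with 95% intervals (edgeR) for the 4 signals under 3 scalings, with the median of all tested features as a dotted line in the same colour. The estimates lie further to the right with each scaling, as the median does, from 0.08 through 0.45 to 0.69, and the intervals with TMM scaling all include 0.

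As shares of the listed counts, by contrast, all 4 signals had higher means after culture. The 5 features together took 33.0% and 37.6% of listed counts at day 3 and 47.8% and 56.0% after culture. With the pair counted once in the sum, but the total as deposited, the 4 signals took 22.1% and 25.4% against 31.7% and 37.3%. The pair, counted once, took 10.8% and 12.2% at day 3 and 16.2% and 18.7% after culture, and NONMMUG043413.2 took 8.74% and 10.0% against 11.4% and 12.6%. For NONMMUG012896.2 the shares were 1.80% and 2.09% at day 3 and 3.12% and 4.65% after culture, with no overlap, as for the 2 signals before. For NONMMUG029036.2 they were 0.785% and 1.14% against 0.956% and 1.46%, and the groups overlapped. The Wilson 95% interval of a share reached no more than 0.0179 percentage points to either side, less than the gap between libraries of a group for every signal. An exact permutation test over libraries (two-sided) gave p = 0.333 for the 3 signals without overlap, which is the lowest value this design can reach, and p = 0.667 for NONMMUG029036.2. After Benjamini-Hochberg adjustment over 11 shares and ratios these were 0.458 and 0.734. Overlap was not counted over all tested features, in shares or in FPKM, so its absence cannot be called particular to these signals.

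These shares have 1 total in common with NONMMUG044354.2, whose share was 47.8% ± 3.13 (SD, n = 2) at day 3 and 27.7% ± 2.57 (SD, n = 2) in cultured ovaries. It was not called in the edgeR fit (log2 fold change -1.35, adjusted p = 0.194). Out of the counts without NONMMUG044354.2, the pair, counted once, took 22.0% ± 0.483 at day 3 and 24.1% ± 1.598 in cultured ovaries (SD, n = 2), and NONMMUG012896.2 took 3.72% ± 0.179 and 5.36% ± 1.31. NONMMUG043413.2 then had the opposite direction, with 18.0% ± 0.645 at day 3 and 16.6% ± 0.5001 in cultured ovaries, and so had NONMMUG029036.2, with 1.83% ± 0.368 and 1.66% ± 0.432. The 5 features together took 67.5% ± 2.16 and 71.7% ± 5.43 of these counts, and the 4 signals, with the pair once in the sum, 45.5% ± 1.67 and 47.7% ± 3.84. The groups overlapped for both sums. The library totals behind FPKM exceed the summed listed counts, and the sources used here do not say what else they count. Out of these totals the 5 took 18.9% ± 1.65 at day 3 and 23.6% ± 1.44 after culture, and the 4 signals 12.8% ± 1.17 and 15.7% ± 1.03.

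**Figure D4:**
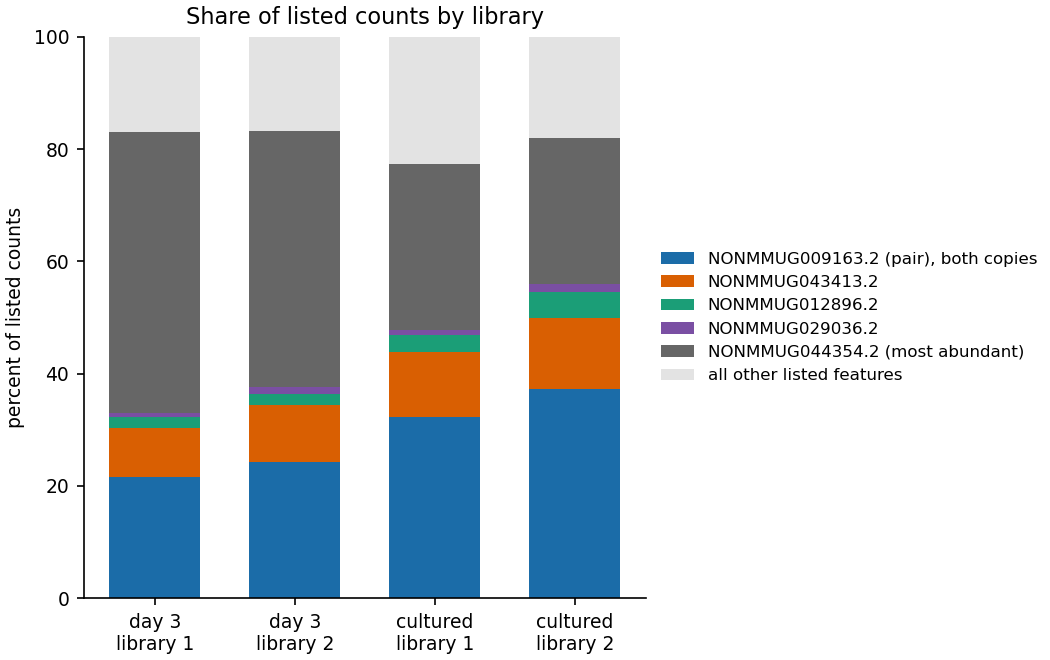
Percent of listed counts per library held by the pair (both copies), the other 3 signals, NONMMUG044354.2 and all other listed features, as stacked bars. The 5 features make up 33.0% and 37.6% of the day 3 bars and 47.8% and 56.0% of the cultured bars, and NONMMUG044354.2 makes up 50.02% and 45.6% against 29.5% and 25.9%.

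Ratios between the signals within a library need no scaling between libraries. The ratio of NONMMUG043413.2 to the pair, counted once, was 0.808 and 0.824 at day 3 and 0.708 and 0.672 after culture. Both cultured libraries lay below both day 3 libraries, and the mean log2 ratio was lower by 0.24, against SDs of 0.020 and 0.052. The ratio of NONMMUG012896.2 to the pair was 0.166 and 0.172 at day 3 and 0.193 and 0.249 after culture, 1.31 times as high on average and without overlap. That of NONMMUG029036.2 was 0.0725 and 0.0936 at day 3 and 0.0591 and 0.0781 after culture, and the groups overlapped.

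The widest gaps were found among the other 3 signals, in the ratios that include NONMMUG012896.2. NONMMUG012896.2 over NONMMUG043413.2 was 0.205 and 0.209 at day 3 and 0.273 and 0.371 after culture, 1.55 times as high on average. NONMMUG029036.2 over NONMMUG012896.2 was 0.437 and 0.543 at day 3 and 0.306 and 0.313 after culture, 0.632 times as high. NONMMUG029036.2 over NONMMUG043413.2 was 0.0897 and 0.1135 at day 3 against 0.0836 and 0.1161 in cultured ovaries, and the groups overlapped. For the 4 ratios without overlap the exact permutation test gave p = 0.333 (0.458 after adjustment), again the lowest possible, so none could pass a threshold of 0.05. The 6 ratios are built from 4 signals and are not independent of each other. Overlap was not counted for ratios of other features, so its absence cannot be called particular to these ratios. With FPKM in place of counts the differences in log2 ratio to the pair were -0.24 for NONMMUG043413.2, 0.39 for NONMMUG012896.2 and -0.28 for NONMMUG029036.2, and counts per deposited length gave the same values to 2 decimals.

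**Figure D5:**
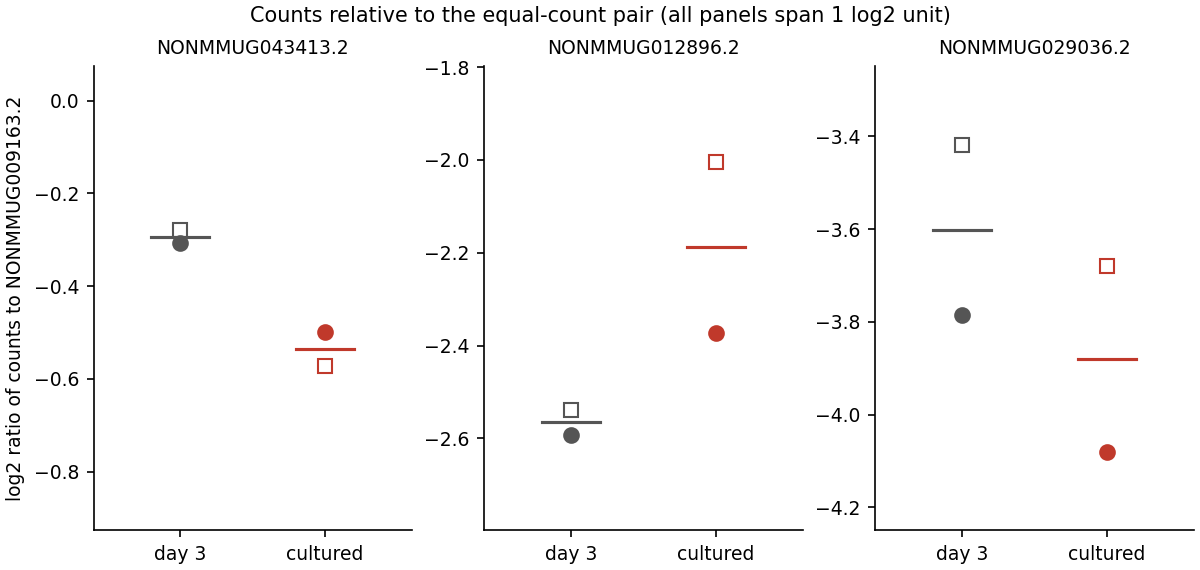
Log2 ratio of the counts of NONMMUG043413.2, NONMMUG012896.2 and NONMMUG029036.2 to those of the pair (counted once) in each library; circles are library 1, open squares library 2, lines are group means, and each panel spans 1 log2 unit. Group means are -0.29 and -0.54 in the first panel and -2.57 and -2.19 in the second, both without overlap, and the libraries overlap in the panel of NONMMUG029036.2.

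Of 244 other features of 250 to 350 bases that were tested, 10 were higher and 27 lower after culture (edgeR, TMM scaling), with a median log2 fold change of -0.15, against 502 higher and 727 lower and a median of 0.08 over all 8557. With the FPKM totals the numbers were 9 higher and 10 lower and the median was 0.21, against 0.45. The 8 most abundant of them had log2 fold changes from -1.14 to 0.32 with TMM scaling, and 0 of these 8 passed the test. The one of 325 bases had 47521 and 47763 counts at day 3 and 42409 and 44290 after culture.

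Patterns over the 4 libraries were compared by the root mean square difference of log2(FPKM + 0.5), centred on each feature's mean, over a pool of 3942 other tested features whose mean FPKM was 1 or more. Nearest to NONMMUG043413.2 was NONMMUG034154.2, a single transcript of 321 bases, with FPKM 63.96, 74.03, 70.18 and 71.94 in the day 3 and then the cultured libraries (difference 0.024). Nearest to the pair was NONMMUG032511.2, of 776 bases, with FPKM 3.94, 4.33, 4.97 and 5.46 in the same order (0.027). Nearest to NONMMUG012896.2 was NONMMUG000269.2, of 214 bases, with FPKM 2.22, 2.55, 3.28 and 4.92 (0.040), and nearest to NONMMUG029036.2 was NONMMUG007819.2, of 1933 bases, with FPKM 12.52, 18.76, 14.22 and 19.35 (0.041). Within a difference of 0.1 there were 60 features for the pair, 63 for NONMMUG043413.2, 15 for NONMMUG012896.2 and 10 for NONMMUG029036.2. The likeness is a description over 4 libraries, and the median difference in the pool was 0.40 to 0.54.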

How the data were processed

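There is 1 deposited table per library. Its columns, per the file headers, are the length of each feature, its expected count (the authors' estimated count) and its FPKM. Per the submitters' processing notes HISAT, Cufflinks and build mm9 were used, and the sources used here do not give the counting tool. Features missing from a table were taken as 0 counts. After rounding, expected counts entered edgeR 4.0.16 (R 4.3.3; TMM factors, quasi-likelihood F test, two-sided, Benjamini-Hochberg over all features tested). The filter kept features that reached FPKM 0.5 in 2 libraries or more. Alternatives used DESeq2 1.42.0 and limma 3.58.1. Libraries of 1 group differed beyond sampling noise (chi-square per degree of freedom 37.4 at day 3 and 60.8 after culture), so none was treated as a library deposited in 2 copies.

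Library totals behind FPKM were recovered from the line of count/FPKM on length over 241 to 364 single-transcript features per library with at least 500 counts and 1000 bases, of which 100% lay within 2% of the line. They were 49298720 and 49187449 at day 3 and 44349224 and 41417036 after culture. The Wilson intervals of shares cover counting error only, and reads can be copies of 1 molecule, since the labels name no molecular identifiers. The edgeR intervals of fold changes also include the spread between libraries, which edgeR estimates in part from all tested features and not from 1 feature alone. Reference lengths and sequences are from RefSeq and GENCODE M21 (GRCm38), not the authors' build, and no coordinates of the tables' features were used. A further reference sequence is not reported here. The edgeR fit was also run on simulated counts with the same dispersion for all features, unlike these data, and no result here rests on it. The members, lists and tests were chosen with earlier results of these data known. Named features are the 5 members, the most abundant feature, and the nearest in pattern to each signal. Gene and marker lists could not be matched, since the tables hold no symbols.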

Additional observations from a re-analysis of the deposited data

How the results depend on the processing

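No alternative but 1 called any of the 5 features: with the summed listed counts as scale 1 was called, NONMMUG012896.2 at a log2 fold change of 1.01. The pair kept its direction in 15 of 17 alternatives, with 0.03 under the replicate block, and ran from -0.28 to 0.44 when single libraries were left out. NONMMUG043413.2 changed direction with the FPKM totals (0.12), the summed counts (0.37) and limma (0.095 at each of 3 pseudocounts), and ran from -0.49 to 0.17 without single libraries. NONMMUG029036.2 changed direction with the FPKM totals (0.083), the summed counts (0.34) and limma (0.053 at each pseudocount), and ran from -0.78 to 0.35. NONMMUG012896.2 ran from -0.088 without cultured library 2 to 1.004 without cultured library 1. Where 1 library is alone in its group it is assumed to vary like the others.

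Shares of listed counts differed by 4.67 to 7.18 percentage points for the pair, 1.98 to 3.25 for NONMMUG043413.2, 1.18 to 2.71 for NONMMUG012896.2 and -0.005 to 0.497 for NONMMUG029036.2 when single libraries were left out. NONMMUG043413.2 and NONMMUG029036.2 reversed as shares of the counts without the most abundant feature (-1.37 and -0.17 points). They also reversed as a percentage of the counts without the 10 most abundant (-15.0 and -1.53). That sum leaves out both features themselves, so this is a ratio to the remaining counts and not a share. The differences in log2 ratio to the pair kept their directions in all 6 alternatives each: -0.28 to -0.21 (NONMMUG043413.2), 0.19 to 0.56 (NONMMUG012896.2) and -0.48 to -0.08 (NONMMUG029036.2). The cause of these shifts was not tested.

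Nothing in the labels pairs libraries by number, and the deviations of libraries with 1 number from their group means had r = -0.139 over 8557 features. Over all features 1229 were called, 1204 with the replicate block and 980 with the crossed pairing, chosen after the data were seen; none of the 5 was among them. The number was 684 with the FPKM totals, 2540 without a filter, 744 with the filter at FPKM 1, 741 to 823 with limma and 360 to 1092 without single libraries. Of the calls, 502 were higher and 727 lower with TMM scaling, 415 and 269 with the FPKM totals, and 817 and 246 with the summed counts. Counting error is small for all 5 features, and the spread between the 2 libraries of a group limits what can be told.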
